A study of Sus scrofa with 48 samples.

Results

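Messenger RNA of 5 genes of the vitamin D system was described in gluteus medius muscle (GM), liver and kidney of F2 pigs. The genes were VDR, CYP27B1, CYP24A1, CALB1 and S100G, and all their probes were taken through the pig RefSeq accession that the array design gives to each probe. This gave 6 probes of 5 genes out of 43603 probes on an array, with 2 probes for VDR (A_72_P116921 and A_72_P223692) and 1 each for CYP27B1 (A_72_P223152), CYP24A1 (A_72_P088422), CALB1 (A_72_P062841) and S100G (A_72_P088751). The 16 animals were Swiss Large White pigs, and 8 each were F2 C and F2 E offspring, with 4 barrows (castrated males) and 4 females per group. Their F0 grandsires ate a standard diet (C) or the same diet with added methionine, choline, betaine, vitamins B6 and B12 and folate (E) from 1 to 10 months of age, and the F1 and F2 generations of both groups received standard feed. The groups descend from few F1 sires, the sire and litter of each of the 16 pigs are not given, and an effect of the grandsire's diet cannot be told apart here from one of family. Each pig gave all 3 tissues, 1 array per tissue and 48 arrays in all, and pigs are named by group and by their replicate number in liver, since the numbers differ between tissues.

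Vitamin D is hydroxylated in the liver and becomes the hormone calcitriol in a further step, which CYP27B1, the 1-alpha-hydroxylase, carries out mainly in the proximal tubule of the kidney. Calcitriol binds VDR, a nuclear receptor that pairs with a retinoid X receptor on DNA, and CYP24A1, the 24-hydroxylase, breaks the hormone down and is itself a classical VDR target. CALB1 (calbindin-D28k) and S100G (calbindin-D9k) bind calcium inside epithelial cells, the former best known in the distal tubule of the kidney and the latter in the intestine.

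The median signal of a spot was 48 to 88.5 on the GM arrays, 88 to 167 on the liver arrays and 48 to 240.5 on the kidney arrays. The kidney arrays of F2 E pigs 5 and 7 had a median signal of 48 each and stood apart from the other 14, which began at 100. The labelled tissues had their markers: 7 of 7 named skeletal muscle markers were highest in GM without overlap, 4 of 4 hepatocyte markers in liver, and 8 of 9 proximal tubule markers in kidney. Markers of other kidney segments did so less, with 1 of 5 for the collecting duct and 1 of 2 for the thick ascending limb. In a piece of tissue, fewer cells of a type and less RNA per cell cannot be told apart. Values are log2 signals, either from all 48 arrays normalized together, for comparisons of tissues, or from the 16 arrays of a tissue, for everything else. Levels of different probes are not set against each other, since probes differ in binding.

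All 5 genes had their highest signal in kidney. Of the 6 probes, 6 were called higher in kidney than in liver and 6 higher in kidney than in GM (limma with the pig as a random block, Benjamini-Hochberg adjusted p below 0.05). Over all 34499 probes tested, 36.6% were called higher in kidney than in liver and 40% higher in kidney than in GM, so that a higher kidney signal alone was common. Liver was called higher than GM for 2 of the 6 probes, both of VDR, against 35.7% of all probes. In GM these probes were well above background on 1 and 0 of 16 arrays, and for the second the mean liver signal lay below the mean of the lowest measurable GM signals (log2 bound -0.25), so no fold is given for it. Kidney arrays lay above every GM and liver array for CYP27B1, CYP24A1 and CALB1, against 5.19% of all probes, while S100G and VDR overlapped.

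VDR, the receptor, differed least between kidney and the other tissues. Probe A_72_P116921 had a lowest, median and highest log2 signal of 5.22, 5.68 and 6.05 for GM, 5.50, 5.95 and 6.52 for liver, and for kidney 5.78, 6.25 and 6.78 (16 pigs each, 48 arrays together). It was well above background on 1 GM array, 9 liver arrays and all 16 kidney arrays, and the 3 ranges overlapped. The kidney mean was 0.32 ± 0.0991 (SE) above liver (limma, adjusted p = 0.00435) and 0.59 above GM (limma, adjusted p = 6.79e-07), and the liver mean was 0.27 above GM (limma, adjusted p = 0.0123), where both differences from GM are set against signals well above background on that 1 GM array alone. The other probe, A_72_P223692, gave 0.50 for kidney over liver (limma, adjusted p = 8.01e-07), and for kidney over GM, where it was well above background on 0 of 16 arrays, at least 1.19-fold (limma, adjusted p = 5.35e-12). These directions depended on how arrays were scaled. When arrays were brought to a common 75th percentile of the median signal, kidney minus liver became -0.19 and -0.07 and kidney minus GM -0.30 and -0.17 for the first and the second probe, none of them called, while the median of all probes moved to -0.38 and -0.60.

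CYP27B1, the activating enzyme, was measured in kidney only: its probe was well above background on 16 of 16 kidney arrays and on 0 of 16 liver and 0 of 16 GM arrays. Its log2 signal in kidney ran from 6.32 over a median of 7.77 to 8.63, and no kidney array fell to the level of another tissue. Against the lowest measurable signals, CYP27B1 was at least 4.02-fold higher in kidney than in liver and at least 3.44-fold higher than in GM. These bounds are for the main scaling, quantile normalization of the median signal. It was higher in kidney in 16 of 16 pigs. The probe passed the presence filter through kidney alone, so its p for these contrasts (limma, adjusted p = 3.01e-21 and 3.15e-22) is no support beyond the bounds.

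CYP24A1, the catabolic enzyme, was the gene of the 5 that was well above background on all 48 arrays. Its log2 signal was 8.04, 8.86 and 9.41 for GM, 8.01, 9.09 and 9.85 for liver, and for kidney 10.99, 12.57 and 13.59 (lowest, median and highest of 16 pigs). GM and liver shared their range, with a difference of 0.17 ± 0.173 (SE, 95% confidence interval -0.18 to 0.52; limma, adjusted p = 0.38), and kidney lay apart from both. The kidney mean was 3.40 ± 0.173 above liver, or 10.6-fold (limma, adjusted p = 3.85e-23), and 3.57 above GM, or 11.9-fold (limma, adjusted p = 3.24e-24).

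Of the calcium binding proteins, CALB1 had the widest gap between tissues. Its log2 signal was 5.16, 5.43 and 6.26 for GM, 5.19, 5.98 and 6.40 for liver, and for kidney 10.69, 12.85 and 14.78 (lowest, median and highest of 16 pigs). It was well above background on 0 GM arrays, on 9 liver arrays and on 16 kidney arrays, and GM and liver overlapped along most of their ranges. Kidney exceeded liver by 6.96 ± 0.264 (SE), or 125-fold, with the main scaling (limma, adjusted p = 2.69e-28). Over the alternatives with all 16 pigs this difference ran from 6.01 to 8.5, so the fold hung on the processing. With the main scaling kidney exceeded GM at least 121-fold (limma, adjusted p = 1.70e-29).

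S100G had a smaller gap. Its log2 signal was 5.26, 5.86 and 6.63 for GM, 5.82, 6.05 and 6.33 for liver, and for kidney 6.03, 8.46 and 10.52, where 15 of 16 arrays were well above background. The remaining kidney array, that of F2 E pig 5, lay inside the liver range, and every other kidney value was 7.14 or more. Kidney exceeded liver, where 9 of 16 arrays were well above background, by 2.45 ± 0.231 (SE; limma, adjusted p = 2.79e-13), with a higher kidney value in 16 of 16 pigs. Over the alternatives with all 16 pigs this difference ran from 1.9 to 3.61. With the main scaling kidney exceeded GM at least 5.47-fold (limma, adjusted p = 1.75e-14), with a higher kidney value in 15 of 16 pigs.

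**Figure D1:**
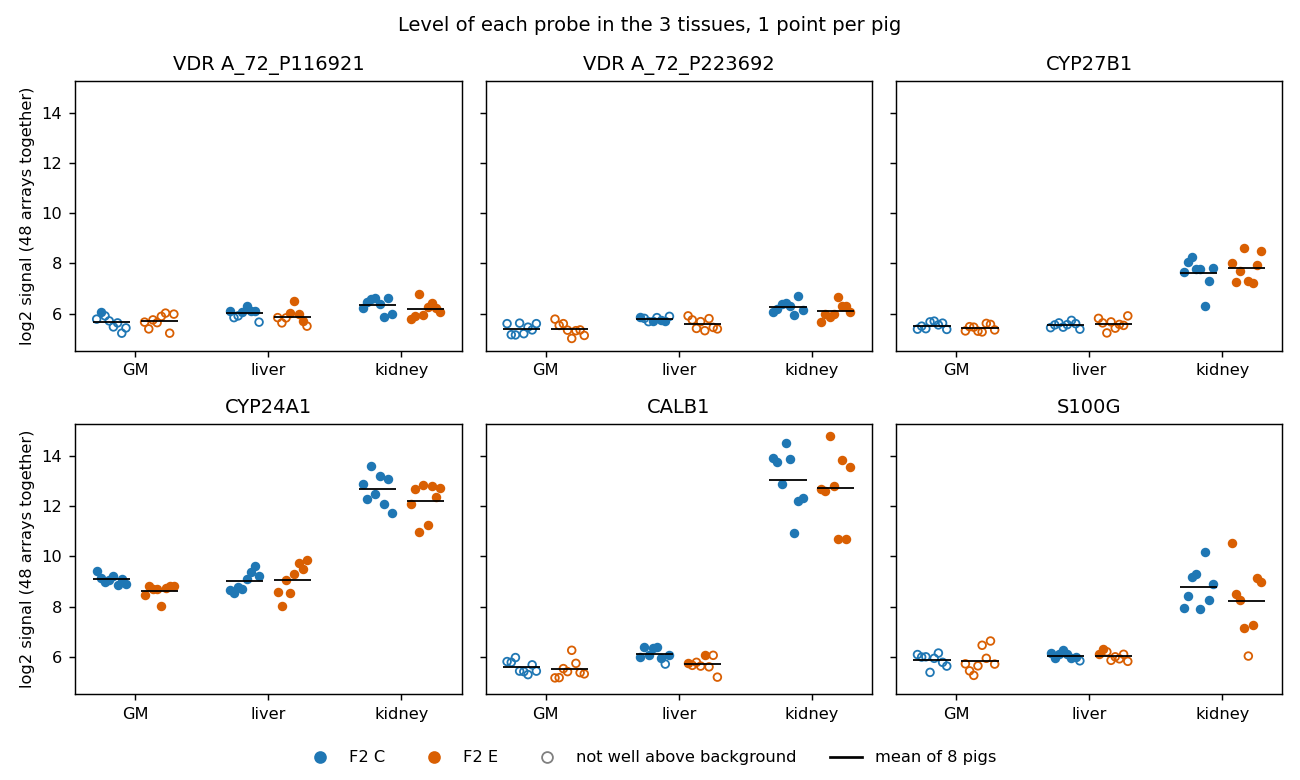
Log2 signal of each probe with all 48 arrays normalized together, by tissue (horizontal axis) and group; each point is 1 pig, open points are not well above background, and a line is the mean of 8 pigs. Kidney points of CALB1 start at 10.69 and those of CYP24A1 at 10.99, above every point of GM and liver, while the VDR points of the 3 tissues overlap.

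A list of 49 further genes of vitamin D, phosphate and calcium handling was read beside the members. The array design named 11 of them here, and 20 probes of 10 genes were tested between tissues. Kidney was called higher than liver for 10 probes and lower for 6, against 36.6% higher and 33.5% lower over all probes, with a median difference of 0.28 on the log2 scale against 0.02. It was called higher than GM for 11 and lower for 8, against 40% and 35.2%, with a median of 0.36 against 0.05. Liver was called higher than GM for 6 and lower for 9, against 35.7% and 35%, with a median of -0.20 against 0.01.

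SLC34A1, the phosphate transporter of the proximal tubule, had a mean log2 signal of 15.92 in kidney, 5.72 in liver and 5.91 in GM. It was well above background on 2 of 16 liver arrays and 1 of 16 GM arrays, so its difference from liver of 10.19 is set against background. The probe passed the presence filter through kidney alone, and its p (limma, adjusted p = 2.31e-50) is no support for that size. PTH1R, the receptor of parathyroid hormone, had 12.47 in kidney, 10.49 in liver and 7.66 in GM (probe A_72_P303289), with kidney 1.98 above liver (limma, adjusted p = 1.27e-20). Its other probe, A_72_P025676, was not called for kidney against liver (0.26; limma, adjusted p = 0.0774). HSD11B2, a cortisol-inactivating enzyme of the collecting duct, had 10.35 in kidney and was 4.50 above liver (limma, adjusted p = 2.64e-31), where 11 of 16 arrays were well above background. RXRG, a partner receptor of VDR, ran the other way, with 6.36 in kidney, 8.32 in liver and 9.69 in GM (probe A_72_P305804), and was lower in kidney than in GM (limma, log2 difference -3.33, adjusted p = 2.76e-33). RXRG probe A_72_P290179 was also lower in kidney than in GM (-2.53; limma, adjusted p = 9.19e-27). It was not called against liver (-0.15; limma, adjusted p = 0.217), with 5 of 16 kidney and 2 of 16 liver arrays well above background. The osteopontin gene SPP1 was 1.96 higher in kidney than in liver (probe A_72_P087646; limma, adjusted p = 2.12e-05), and 0.85 higher by probe A_72_P033021 (limma, adjusted p = 0.0188). The probes of the calcium pump ATP2B1 disagreed, since A_72_P115721 was 0.96 higher in kidney than in liver (limma, adjusted p = 1.31e-14) and A_72_P405863 was lower, at -0.34 (limma, adjusted p = 0.000624). ATP2B1 probe A_72_P223312 was not called (-0.05; limma, adjusted p = 0.611).

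The comparison of F2 E with F2 C offspring asked whether the grandsires' diet left a difference in expression. No member probe was called in any tissue. The presence filter admitted 1 of the 6 probes in GM (CYP24A1), 5 in liver (CYP27B1 left out) and 6 in kidney. Limma called 0.761% of the GM probes tested at an adjusted p below 0.05, and the shares for liver and kidney were 0.0937% and 0.0119%, so a call among a handful of probes would have been rare. At an unadjusted p below 0.05 it listed 16.1% (GM), 8.32% (liver) and 3.84% (kidney) of the probes, and among the member probes those of CYP24A1 in GM and of CALB1 in liver, the latter admitted through F2 C alone.

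CYP24A1 in GM was lower in F2 E than in F2 C offspring without overlap, and still missed the threshold over all probes. F2 C pigs had a log2 signal of 8.10, 8.32 and 8.63 (lowest, median and highest of 8), and F2 E pigs 7.30, 7.97 and 8.08. The means were 8.32 ± 0.17 (SD, n = 8) and 7.88 ± 0.27 (SD, n = 8). Every F2 E pig was thus below every F2 C pig, a separation seen in 0.453% of the 25622 probes tested in GM. The difference was -0.44 ± 0.118 (SE, 95% confidence interval -0.69 to -0.19), a 1.35-fold lower signal. Its unadjusted limma p was 0.00153, its adjusted p was 0.0861, and the exact two-sided permutation p over 16 pigs was 0.000155, the smallest that 8 against 8 can give. It was -0.41 within the pigs of the lower number series in the labels and -0.47 within the upper series, with 4 pigs per group in each.

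Array measures moved with the group in GM as well. The median local background was 14 to 24 on the F2 C arrays and 26 to 28 on the F2 E arrays, and the share of spots well above background was 53.6% to 65.6% and 43.3% to 58.7%. With background-corrected signals the CYP24A1 difference was -0.49 (limma, adjusted p = 0.102), and after a normexp correction with quantile normalization it was -0.36 (limma, adjusted p = 0.0832). Each GM slide carried 4 pigs of 1 group, so slide and group could not be separated. With slide as a random block the CYP24A1 difference kept its size and the adjusted p was 0.699 in limma.

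CALB1 in liver was close to background. F2 C pigs had a log2 signal of 5.96, 6.31 and 6.61, well above background on 7 of 8 arrays, and F2 E pigs 5.50, 5.96 and 6.29, well above background on 2 of 8. The probe thus passed the presence filter through F2 C alone, the group where it was higher, and its p is no support for a difference. The groups overlapped between 5.96 and 6.29. The difference was -0.37 ± 0.125 (SE, 95% confidence interval -0.63 to -0.11; limma, adjusted p = 0.384). Its size hung on the processing, with -1.23 for background-corrected signals and -0.16 for the median signal, each scaled to the 75th percentile, and on the 2 slides that held both groups it was -0.31 and -0.24. F2 C liver arrays also had more spots well above background in general, 61.4% to 70.3% against 55.1% to 64.8% on F2 E arrays. The part of these measures in the CALB1 difference was not tested.

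The remaining members showed no called difference in liver. S100G had the same mean in both groups, 6.28, with a difference of -0.00 (95% confidence interval -0.20 to 0.19; limma, adjusted p = 0.995), and it too passed the filter through F2 C alone, with 7 of 8 arrays well above background against 2 of 8. CYP24A1 differed by 0.08 (-0.44 to 0.59; limma, adjusted p = 0.958). The first VDR probe differed by -0.13 (limma, adjusted p = 0.835). The second VDR probe passed the filter through F2 C alone, with 4 of 8 arrays well above background against 0 of 8 in F2 E, and had means of 6.03 and 5.86 (limma, adjusted p = 0.654), a difference that changed sign with the median signal scaled to the 75th percentile.

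In kidney, where all 5 genes were expressed, the intervals were wide. S100G was 8.46, 9.27 and 10.76 in F2 C and 6.20, 9.0 and 11.10 in F2 E pigs, a difference of -0.61 with a 95% confidence interval of -1.77 to 0.55. CYP24A1 was 12.27, 13.15 and 13.99 in F2 C and 11.55, 13.01 and 13.29 in F2 E pigs, a difference of -0.43 (-1.05 to 0.19). The S100G range of F2 C lay within that of F2 E, and the CYP24A1 ranges overlapped between 12.27 and 13.29. CALB1 was 11.48, 13.75 and 14.79 in F2 C and 11.27, 13.23 and 15.02 in F2 E pigs, a difference of -0.32 (-1.48 to 0.84), which became 0.31 without the arrays of F2 E pigs 5 and 7. CYP27B1 was 6.59, 8.34 and 8.86 in F2 C and 7.69, 8.40 and 9.24 in F2 E pigs, a difference of 0.23 (-0.40 to 0.86). With 1 pig left out at a time the differences ranged from -0.94 to -0.25 for S100G, -0.55 to -0.26 for CYP24A1, -0.61 to -0.05 for CALB1 and 0.01 to 0.33 for CYP27B1. The VDR probes differed by -0.22 (-0.64 to 0.19) and -0.21 (-0.59 to 0.17), and for all 6 probes the adjusted p in limma was 1.00. Of the wider list, limma called 0 of 20 kidney probes, 0 of 18 GM probes and 0 of 18 liver probes, with 0, 3 and 1 of them at an unadjusted p below 0.05.

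**Figure D2:**
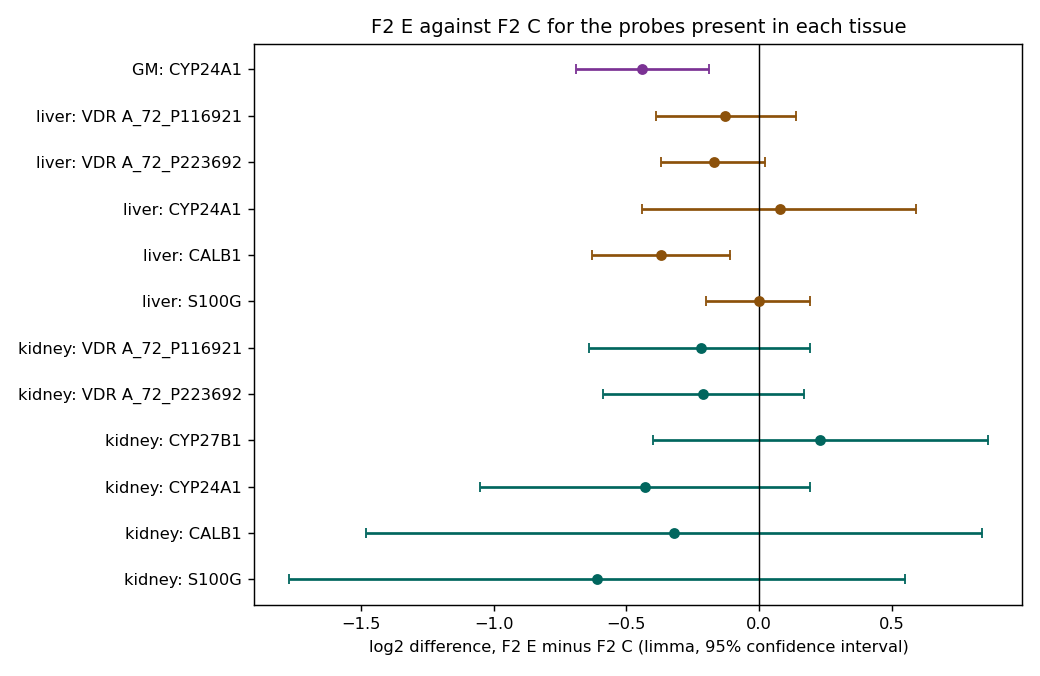
Difference between F2 E and F2 C offspring (horizontal axis, log2) for the 12 probe and tissue combinations that passed the presence filter, with 95% confidence intervals from limma before adjustment for the number of probes; purple is GM, brown liver and green kidney. The intervals of CYP24A1 in GM and CALB1 in liver leave out 0, the latter for a probe that passed the filter through F2 C alone, and those of the kidney are the widest.

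The group difference was also compared between tissues. Contrasts over the 48 arrays called 0 member probes in any pair of tissues, against 0.0203% of all probes for kidney against liver, 0.0435% for kidney against GM and 0.122% for liver against GM. At an unadjusted p below 0.05 there were also 0 member probes, against 2.28%, 5.68% and 7.48% of all. For CYP24A1 the group difference was nearly the same in kidney as in GM, -0.01 apart (95% confidence interval -0.70 to 0.69), and in liver it was 0.53 above that in GM (-0.17 to 1.22; limma, adjusted p = 0.806). The low GM value of CYP24A1 in F2 E pigs was thus not shown to be particular to GM.

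Barrows and females did not differ in a called way. Limma called 0 member probes for sex, against 0.121% (GM), 0.118% (liver) and 0.0921% (kidney) of all probes. At an unadjusted p below 0.05 it listed 1 member probe, the first VDR probe in liver, against 3.86%, 14.2% and 0.912% of all probes. For a group difference that depends on sex it called 0 member probes, and 0% of all probes, and at an unadjusted p below 0.05 also 0 member probes, against 3.46%, 1.75% and 2.64% of all. In liver the first VDR probe was 6.08, 6.29 and 6.72 in barrows and 5.77, 6.01 and 6.34 in females, a difference of 0.27 ± 0.112 (SE; limma, unadjusted p = 0.0266, adjusted p = 0.291), and the sexes overlapped between 6.08 and 6.34. In kidney, S100G ran from 6.20 to 11.10 in barrows (SD 1.63, n = 8) and from 8.88 to 9.94 in females (SD 0.43, n = 8), so all 8 females lay inside the barrows' range. The sexes' means of 8.68 and 9.44 differed by -0.76 (95% confidence interval -1.89 to 0.37; limma, unadjusted p = 0.172), and the difference in spread was not tested.

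Pigs of one tissue differed from each other far more in some members than in others. CALB1 and S100G had SDs of 1.19 and 1.21 over the 16 kidneys, each above 99.3% of the 23449 probes well above background in kidney, whose median SD was 0.36. This was a range of 13.5-fold for CALB1 and 30-fold for S100G between the lowest and the highest pig. Without the S100G value of F2 E pig 5, which was not well above background, the S100G range was 11.2-fold and its SD 0.98. CYP24A1 (SD 0.65) and CYP27B1 (SD 0.64) were above 89.4% and 88.8% of these probes, and the VDR probes (SD 0.42 and 0.38) lay nearer the middle. In GM, CYP24A1 had an SD of 0.31, the same as the median probe.

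Single pigs stood out in kidney. F2 C pig 6 had the lowest CYP27B1 of all 16 (6.59, against 7.69 or more in the others) and the third lowest CALB1 (11.48), and yet the second highest S100G (10.76). F2 E pig 5 had the lowest S100G (6.20), shared the lowest CALB1 (11.27) with F2 E pig 7, and had a low CYP24A1 (11.80). F2 E pig 1 had the highest S100G (11.10) with a CALB1 of 13.18, and F2 E pig 3 the highest CALB1 (15.02) with the lowest CYP24A1 (11.55). No pig was low or high in every member.

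**Figure D3:**
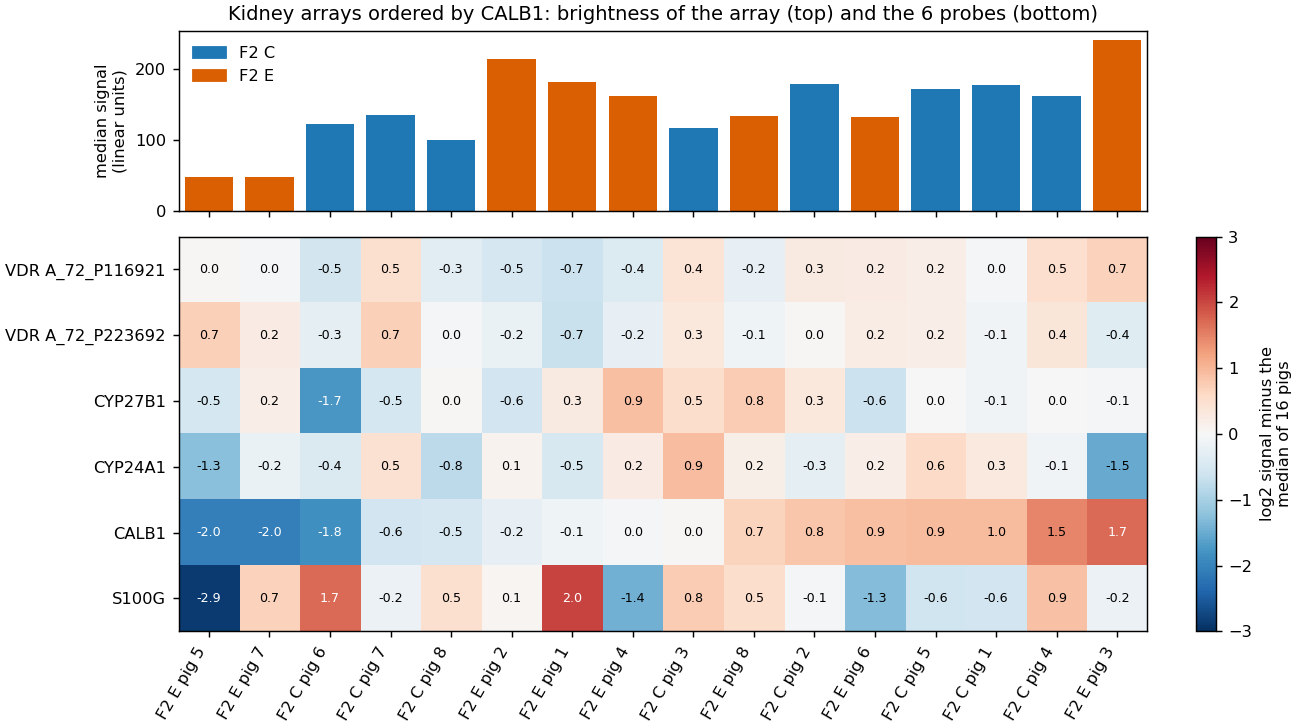
The 16 kidney arrays ordered by CALB1, with the median signal of each array in linear units (top, bars coloured by group) and the log2 signal of each probe minus its median over 16 pigs (bottom, colour scale and numbers). The pair of dimmest arrays, F2 E pigs 5 and 7, is also lowest in CALB1, while S100G has the lowest value of all in the former (6.20) and one above the median in the latter (9.76).

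No relation was detected between the calcium binding proteins. CALB1 and S100G had a Pearson r of 0.00 (permutation p = 0.997) and a Spearman rho of -0.14 (permutation p = 0.611) over the 16 kidneys, and r was -0.41 without F2 E pigs 5 and 7, the farthest from the median of CALB1. CYP27B1 and CYP24A1, which make and break down the same hormone, had r = 0.24 (permutation p = 0.378) and rho = 0.14. Over all 16 pigs the highest r of the 10 pairs was that of VDR (probe A_72_P116921) with CALB1. It was r = 0.47 (permutation p = 0.0714, 0.714 after Benjamini-Hochberg over 10 pairs), with rho = 0.48 (permutation p = 0.064, adjusted 0.64), and r was 0.40 without the 2 farthest pigs. Single pigs moved other pairs further: CYP27B1 with S100G went from -0.03 to 0.62 without F2 C pig 6 and F2 E pig 4, and CYP24A1 with S100G from 0.10 to -0.47 without F2 E pigs 3 and 5. None of the 10 pairs passed after adjustment. Here and in the kidney relations below, VDR stands for probe A_72_P116921 alone, and relations of its other probe with other genes are not given. In that other probe, A_72_P223692, F2 E pigs 5 and 7, the lowest in CALB1, had 7.06 and 6.60, above its median of 6.36. The pair of VDR probes, which read the same transcript, had r = 0.57 (permutation p = 0.0231) and rho = 0.59 (permutation p = 0.0172), and r was 0.76 without the 2 farthest pigs.

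CALB1 followed the brightness of the array. Its correlation with the log2 median signal of the kidney array was r = 0.77 (permutation p = 0.00048, 0.0048 after adjustment over 10 relations) and rho = 0.59 (permutation p = 0.0179, adjusted 0.179). It was 0.52 without F2 E pigs 5 and 7, 0.73 within F2 C, 0.84 within F2 E and 0.85 with slide means removed, while within the number series it was 0.79 in the lower and 0.32 in the upper. No other member had an adjusted p below 0.05 for this measure or for the share of spots well above background. The thick ascending limb markers, 2 probes, followed brightness too (r = 0.90, rho = 0.76), whereas the collecting duct markers (r = 0.26) and the proximal tubule markers (r = -0.19) did so less. Whether CALB1 in these pieces followed the RNA, the labelling or the sampled zone of the kidney was not tested.

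**Figure D4:**
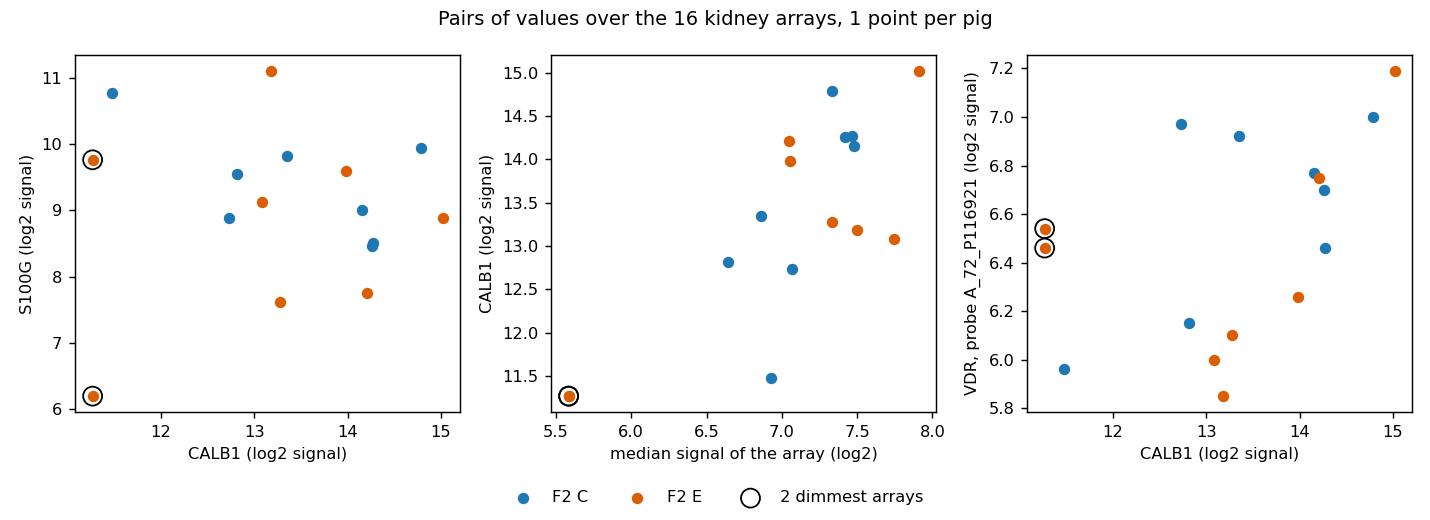
Pairs of values over the 16 kidney arrays, 1 point per pig in log2 units, with the 2 dimmest arrays ringed (they fall on each other in the middle panel). S100G against CALB1 shows no slope (r = 0.00), and CALB1 against the median signal of the array rises (r = 0.77). VDR probe A_72_P116921 against CALB1 rises weakly (r = 0.47), and the other VDR probe is not shown.

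The members were also set against marker lists of kidney segments and other cell types, which gave 35 relations, none of them with an adjusted p below 0.05 over the 16 arrays as they stand. Each kidney slide held 4 pigs of 1 group and 1 number series, and with slide means removed 5 relations passed, among them S100G with the hepatocyte list, whose r went from 0.38 to 0.84. The resampling for these ran over all 16 pigs and not within slides, so their p may be too small. CALB1 had r = 0.65 with the collecting duct list (3 probes; rho = 0.69, permutation p of rho = 0.00404; adjusted p of r 0.0716) and r = -0.59 with the blood and leukocyte list. With the thick ascending limb list (2 probes) CALB1 had r = 0.62 (permutation p = 0.0102, adjusted 0.0716), which fell to 0.18 without F2 E pigs 5 and 7. VDR (A_72_P116921) had r = 0.64 with the proximal tubule list (11 probes), 0.63 with the collecting duct list and -0.66 with the blood and leukocyte list. Of the 5 named collecting duct genes, 1 was highest in kidney without overlap and 1 in GM. That list thus marks its segment less clearly here than the proximal tubule list does. CYP27B1 had r = 0.59 with the proximal tubule list, its known site, which fell to 0.28 without F2 C pig 6 and F2 E pig 1. Of the distal tubule list itself, where CALB1 is best known, CNNM2 alone was named on the array, so it gave no relation.

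The named genes most like each member over the 16 kidney arrays were taken by Pearson r among 1864 named probes, as a description. For CALB1 these were SUCLG1 (0.97), HADH (0.95) and ATP6V1H (0.95), whose own correlations with the array's median signal were 0.77, 0.88 and 0.83. For VDR they were HSD11B2 (0.74), AK4 (0.74) and PROC (0.73), for CYP27B1 CYP2D25 (0.77), RAI14 (0.76) and GGT1 (0.73), for CYP24A1 CPT1A (0.72), RHOF (0.69) and PLIN2 (0.67), and for S100G CST3 (0.77), TPM1 (0.73) and CFB (0.73). No gene was shared between these 5 lists of 3. Picked as the highest of 1864 values over 16 arrays, these r were not tested against chance. The HSD11B2 probe is also in the collecting duct list and the GGT1 probe in the proximal tubule list. Their r with VDR and CYP27B1 are thus not separate from the relations with those lists.

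CYP24A1 in liver separated the pigs by the number in their labels and not by group. The 8 pigs of the lower number series, 4 of each group, had a log2 signal of 9.26 to 10.01, and the 8 of the upper series 8.16 to 9.22, without overlap, a mean difference of 0.86. Of the 28823 probes tested in liver, 0.534% separated the series in this way. CYP24A1 overlapped between the series in GM (7.30 to 8.44 and 7.69 to 8.63) and in kidney (11.80 to 13.64 and 11.55 to 13.99). Series and slide went together in liver, since the upper series lay on slides 1 and 2 and the lower on slides 3 and 4, and cannot be told apart. Within the lower series F2 E pigs were 0.28 above F2 C pigs (limma, adjusted p = 0.78), and within the upper series 0.13 below them (-0.13; limma, adjusted p = 0.892). This split was noticed after the values were seen and was given no test.

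CYP24A1 was also compared between tissues of the same pig. GM and kidney had r = 0.58 (permutation p = 0.0187, 0.0562 after adjustment over 3 relations) and rho = 0.53 (permutation p = 0.0385, adjusted 0.116) over 16 pigs, with 0.42 within F2 C, 0.58 within F2 E and 0.40 without the 2 pigs farthest from the GM median. F2 E pig 5 was lowest of all in GM (7.30) and second lowest in kidney (11.80). GM and liver had r = -0.13 (permutation p = 0.627) and liver and kidney -0.08 (permutation p = 0.779). None of the 3 relations, which were chosen after the values were seen, passed after adjustment.

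**Figure D5:**
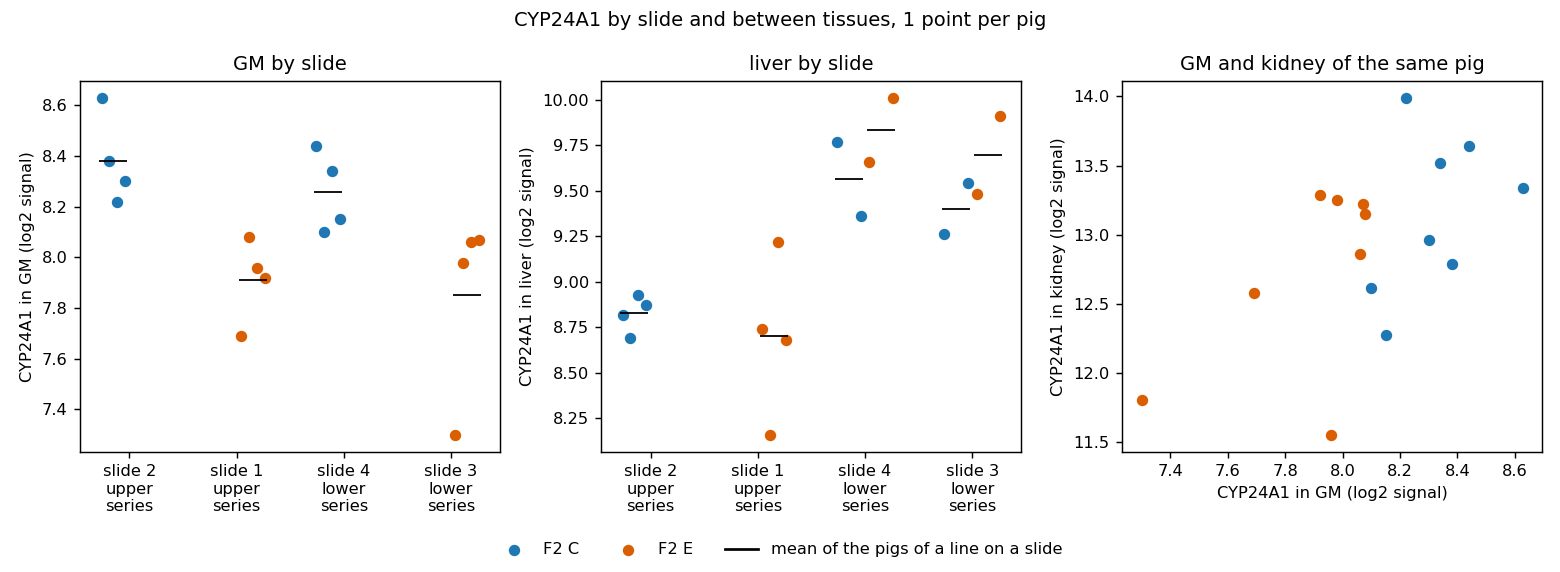
CYP24A1, log2 signal within each tissue, 1 point per pig: GM by slide (left), liver by slide (middle) and GM against kidney of the same pig (right); a line is the mean of the pigs of a group on a slide. In GM every F2 E point lies at or below 8.08 and every F2 C point at or above 8.10, and in liver all points of the lower series (slides 3 and 4) lie above those of the upper series (slides 1 and 2).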

How the data were processed

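RNA of GM, liver and kidney was hybridised in 1 colour to 48 Agilent porcine arrays. The authors scanned them and deposited the median pixel intensity of each spot, its local background and a background-corrected intensity, without normalization between arrays; the file headers name Feature Extraction 10.5.1.1, while the methods name another version. Their tables per tissue, with log2 values after quantile normalization and their own comparisons, were not used (48 columns of per-sample values), since column names did not identify single samples.

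Here the median signal of the 43603 probes was quantile-normalized within tissue, or over 48 arrays for tissue contrasts, and put on the log2 scale. Spots marked as outliers were set to missing afterwards (0 arrays had a marked member spot). The presence filter asked for a signal above 25, well above background, on 50% or more of a group's arrays. Tests used lmFit and eBayes of limma 3.58.1 in R 4.3.3, Benjamini-Hochberg over all probes kept, exact two-sided permutation over 12870 splits, and 100000 resamples for correlations (smallest p 1e-05). Tissue contrasts had the pig as a random block (correlation 0.0304). Bounds set the bright mean against, per array of the dim group, the higher of the probe's signal and the lowest signal well above background. A p beside a bound is that of the difference in the signals as measured, not of the bound. Each group was 8 separate pigs per tissue, and their number limits the precision. Alternatives were other signals and scalings, filters, treatment of marked spots, slide, number series, sex or replicate number as a term, the methods' t-test, each pig left out, and analyses added after the data were seen. Code was tested on simulated data.

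Named were all member probes, genes of the 49-gene list that were called in a contrast or highest in kidney, and for each member the 3 named genes of highest r in kidney. Members and lists were chosen with earlier results of these data known. Only 2628 probes had a gene name here, through RefSeq accessions, and 4803 probes with Ensembl transcripts were not named. No coordinates are given, since the files name no genome build.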

Additional observations from a re-analysis of the deposited data

Results flagged for a closer look

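CYP27B1 in kidney had 1 outlying pig. F2 C pig 6, a barrow of the lower number series, had a log2 signal of 6.59, with the nearest F2 C pig at 7.80 and the highest at 8.86, so that its gap took 0.533 of the range of the 8 pigs, above Dixon's 95% critical value for that number. Its array was not dim, its CALB1 was also low (11.48) and its S100G was high (10.76). Chance gives about 1 such pig in 20 groups, and 22 groups of 8 were examined.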

How the results depend on the processing

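Under every alternative run, 0 member probes were called for F2 E against F2 C in all 3 tissues, and the 6 calls each for kidney over liver and over GM went to 4 with the median signal at the 75th percentile, without VDR, and stayed 6 with the other scalings. With probes well above background on all arrays, CYP24A1 alone was tested, giving 1 call for kidney against liver, 1 for kidney against GM and 0 for liver against GM. The 2 calls for liver against GM became 4 with background-corrected signals at the 75th percentile (CALB1 0.96 and S100G 0.87 added), 1 with normexp and 0 with the median signal at the 75th percentile. Under that last scaling, which put the median of all probes at -0.38 for kidney minus liver, -0.60 for kidney minus GM and -0.25 for liver minus GM, VDR probe A_72_P116921 was -0.19 for kidney minus liver, -0.30 for kidney minus GM and -0.10 for liver minus GM, and A_72_P223692 -0.07, -0.17 and -0.10. For liver minus GM it also gave CALB1 -0.06, S100G -0.17 and CYP27B1 -0.32 (-0.27 with background-corrected signals).

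The same scaling gave 2 calls for sex in liver in place of 0, S100G at -0.68 (adjusted p = 0.0255 in limma) and VDR A_72_P223692 at -0.63 (adjusted p = 0.03 in limma), with CALB1 at -0.54 and VDR A_72_P116921 at -0.35, while all probes had a median of -0.14 and 4918 calls in place of 34. With background-corrected signals VDR A_72_P223692 was -0.15 for sex in liver. For F2 E minus F2 C in liver the median signal at the 75th percentile gave 0.20 for S100G, 0.11 for VDR A_72_P116921 and 0.07 for A_72_P223692. Other uncalled signs turned within subsets: in liver CYP24A1 -0.13 and S100G 0.00 in the upper number series, S100G 0.04 within slide 4 and VDR A_72_P116921 0.05 within slide 3, and in kidney VDR A_72_P116921 0.06 and A_72_P223692 0.10 in the lower series, CYP27B1 -0.05 in the upper and CALB1 0.31 without the 2 dimmest arrays.

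With 1 pig left out at a time, CYP24A1 in GM ranged from -0.47 to -0.36 (limma, adjusted p 0.0881 to 0.149). Uncalled differences that turned sign ranged in liver from -0.04 to 0.23 (CYP24A1, group), -0.04 to 0.03 (S100G, group) and -0.28 to 0.00 (CYP24A1, sex), and in kidney from -0.42 to 0.18 (CALB1, sex) and -0.21 to 0.11 (CYP24A1, sex). Of 35 relations with marker lists in kidney, 0 passed, 1 with normexp (VDR with collecting duct), 3 with the median signal at the 75th percentile, 5 with slide means removed (S100G with hepatocyte markers highest, r = 0.84, rho = 0.82), 1 without the 2 dimmest arrays (CALB1 with collecting duct, r = 0.77), and 0 to 4 with 1 pig left out, 4 without F2 E pig 3. The cause of these changes was not tested, and the resampling after removal of slide means was not held within slides.

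The replicate number in the labels did not pair F2 C with F2 E pigs (2 of 8 GM pairs, 5 of 8 liver pairs and 3 of 8 kidney pairs correlated over 0.1). With it as a replicate block, CYP24A1 in GM was -0.44 (limma, adjusted p = 0.142) and no member was called, and calls over all probes went from 195 to 50 in GM, 27 to 22 in liver and 4 to 0 in kidney. Over all GM probes they were 6 with slide as a random block, 507 with number series as a block, 99 with probes well above background on all arrays, and 56 with the methods' t-test of unequal variances. The correction by normexp on the mean signal that had been planned was not run, since the files hold no mean signal, and the median signal took its place. VDR was well above background on 1 and 0 of 16 GM arrays, and CALB1 and S100G on 9 of 16 liver arrays each, so these values lie near the lower limit of measurement.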
